A study of Mus musculus with 15 samples.

Results

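The earliest time point of the series was described here by comparing the 3 tumors harvested on day 1 of intratumoral (i.t.) poly(I:C) treatment with the 3 untreated tumors of day 0, which are 6 of the 15 tumors sequenced. The 6 were chosen by their harvest day label alone. All were WEHI 164 tumors, grown from a mouse fibrosarcoma line under the skin of female, wild-type (WT) BALB/c mice, and the surrounding tissue had been removed before the tumors were placed in RNAlater. Per the labels, the day 1 tumors belonged to a schedule of 1 µg poly(I:C) in 25 µL, given i.t. daily for 6 planned doses, and were collected 1 day after the first dose. The supplement of the study names a larger dose for this schedule, which leaves the dose uncertain, and the number of doses received by the time of harvest was not stated. The day 0 tumors are labelled as untreated, and no tumor is labelled as injected with vehicle, so that effects of the injection and of poly(I:C) cannot be told apart. The study's legends count mice in each group, so the tumors of a day were taken to come from separate mice. Age was stated only as a range of weeks over all mice of the study. In bulk tumor RNA, fewer cells of a type and less RNA per cell cannot be told apart.

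Poly(I:C) mimics the double-stranded RNA of viruses. It is sensed in endosomes by Tlr3 and in the cytosol by Ifih1 (MDA5), which signal through the adaptors Ticam1 and Mavs to Irf3 and Irf7 and so to the genes of the type I interferons. Secreted interferon binds the receptor of Ifnar1 and Ifnar2, and an activated transcription factor complex then binds an interferon-stimulated response element (ISRE) near its target genes. Interferon gamma, made by lymphocytes, acts through a receptor of its own and is a strong inducer of guanylate binding proteins and of antigen presentation genes.

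Total counts of the 6 tumors ranged from 24.9 to 31.9 mega-counts, and 15494 genes were tested. At this depth, 3 counts, which a listed 0 does not exclude, stood for 0.094 to 0.12 CPM (the counts of a gene relative to its tumor's library size, adjusted for composition). Such limits cover counting error only. The mesenchymal genes expected of a fibrosarcoma were abundant in every tumor, with Vim between 4085 and 5165 CPM and Col1a1 between 611 and 1529 CPM.

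At an adjusted p under 0.05 in edgeR's quasi-likelihood test, 0 of the 15494 genes were called, and the smallest adjusted p was 0.641. At an unadjusted p under 0.05, 489 genes passed, or 3.16% of those tested, which is fewer than the 5% at which that threshold is set. Of these, 337 were higher on day 1 (2.18%) and 152 were lower (0.981%). DESeq2, run as an alternative, called 40 genes (0.258%), with 37 higher (0.239%) and 3 lower (0.0194%). Of the 40, 39 had no overlap between the 3 day 1 and the 3 day 0 tumors, a property of 12.4% of all genes. The 40 were called on these same tumors, so the lack of overlap follows in part from the calling. Of the 40, 21 were among the 46 genes of the interferon target list. The median log2 fold change over all genes was 0.00 to 2 decimals. Values at an unadjusted threshold are therefore given below as descriptions, with each tumor's level beside them.

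The 3 day 1 tumors did not contribute equally. The distance between a pair of tumors, as the root mean square of the difference in log2 CPM over all genes, was 0.417 to 0.495 among the day 0 tumors. Day 1 replicate 1 lay at 0.439 to 0.463 from them, within that range. Day 1 replicate 2 lay at 0.548 to 0.591 and day 1 replicate 3 at 0.645 to 0.788. Counted by genes, 467 to 794 differed at least 2-fold between untreated tumors, and 1470 to 2191 between an untreated tumor and day 1 replicate 3.

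**Figure D1:**
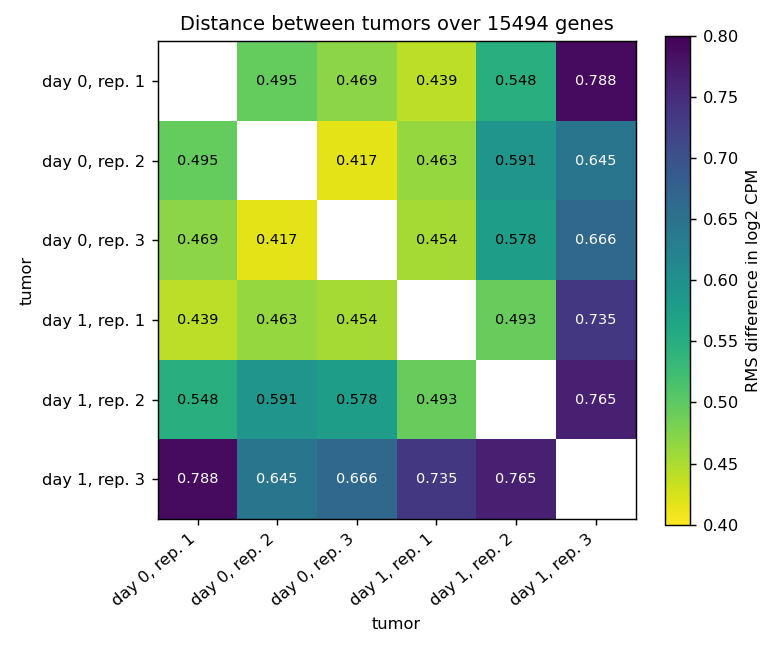
Root mean square difference in log2 CPM over 15494 genes for each pair of the 6 tumors (darker is farther apart). The 3 untreated tumors and day 1 replicate 1 lie within 0.417 to 0.495 of each other, and day 1 replicate 3 is at least 0.645 from every other tumor.

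Day 1 replicate 3 had 592 genes at least 2-fold above every day 0 tumor (3.82%), against 40 in replicate 1 (0.258%) and 32 in replicate 2 (0.207%). The order was different for low genes. Day 1 replicate 2 had 329 genes at least 2-fold below every day 0 tumor (2.12%), replicate 3 had 250 (1.61%) and replicate 1 had 71 (0.458%). Few of these genes were shared, with 4 genes above and 7 below in all 3 tumors. The 4 were Oas3, an oligoadenylate synthetase that senses double-stranded RNA, and the predicted genes or pseudogenes Gm20431, Gm2445 and Kpna2-ps. The 7 were Kbtbd6, Krt76, Zbed6, Gm15481, Gm20521, Gm6829 and Gm7935. Pseudogene counts are uncertain, because reads of near-identical copies were divided among them. Among the 337 genes that were higher at an unadjusted p under 0.05, 306 were highest in replicate 3, 23 in replicate 2 and 8 in replicate 1.

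As a list, the interferon targets were higher in every day 1 tumor. All 46 had a positive fold change, against 49.9% of all genes, with a median log2 fold change of 1.30. At an unadjusted p under 0.05, 44 of 46 were higher (2.18% of all genes were). In 44 of 46, each day 1 tumor lay above each day 0 tumor, against 5.76% of all genes. Slfn5 was among those not separated. The mean log2 CPM of the list was 5.61, 5.99 and 5.85 in the day 0 tumors and 6.59, 6.48 and 7.79 in day 1 replicates 1, 2 and 3. Day 1 replicates 1 and 2 were thus close to each other, and replicate 3 stood about 1 log2 unit higher. Relative to the mean of the untreated tumors, the median target was 0.72 higher in replicate 1, 0.67 higher in replicate 2 and 2.04 higher in replicate 3 on the log2 scale. Each of the 46 was highest in replicate 3. A single tumor did not carry the separation, since 45 of 46 targets were above every untreated tumor in replicate 1 (22.3% of all genes were) and 45 of 46 in replicate 2 (26.2%). Without day 1 replicate 3, 38 of 46 remained at an unadjusted p under 0.05, with a median of 0.71.

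**Figure D2:**
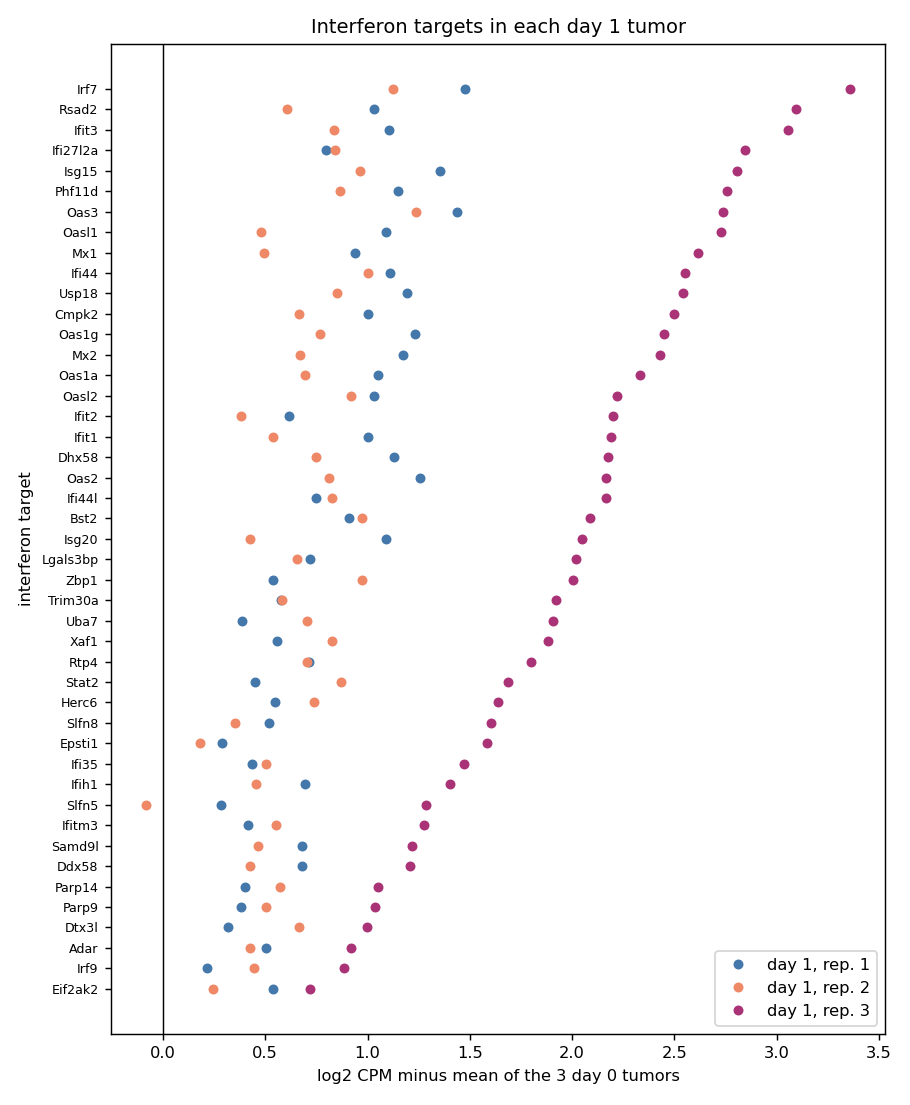
Interferon targets, 45 of the 46 on the list, in each day 1 tumor, as log2 CPM minus the mean of the 3 day 0 tumors, ordered by replicate 3. Replicate 3 is highest for every target drawn, and replicates 1 and 2 lie between it and 0 for all but Slfn5, which is below 0 in replicate 2.

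Several target promoters hold the sequence to which the interferon-activated complex binds, and 4 windows are shown as examples from the targets (Isg15, Oas3), from outside the lists (Ddx60) and from the GTPases (Gbp3), chosen after their values were seen. In windows of 250 bases before to 50 bases after the annotated start (RefSeq, GRCm38.p6), the core ISRE letters GAAANNGAAA were sought on both strands, so that TTTCNNTTTC also counts and neighbouring matches may overlap. Matches are in capitals, and each sequence reads 5′ to 3′ on the strand of the gene.
Isg15, chr4:156200769-156201068, minus strand: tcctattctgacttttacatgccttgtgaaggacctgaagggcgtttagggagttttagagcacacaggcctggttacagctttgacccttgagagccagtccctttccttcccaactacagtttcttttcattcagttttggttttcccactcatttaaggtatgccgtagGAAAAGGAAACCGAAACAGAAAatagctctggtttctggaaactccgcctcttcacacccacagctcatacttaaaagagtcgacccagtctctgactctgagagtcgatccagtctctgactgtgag
Oas3, chr5:120777610-120777909, minus strand: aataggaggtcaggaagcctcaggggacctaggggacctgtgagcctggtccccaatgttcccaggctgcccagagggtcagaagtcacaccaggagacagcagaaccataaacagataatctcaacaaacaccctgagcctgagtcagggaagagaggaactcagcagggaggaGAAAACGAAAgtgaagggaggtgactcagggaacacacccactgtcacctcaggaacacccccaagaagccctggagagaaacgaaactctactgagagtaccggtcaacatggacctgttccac
Ddx60, chr8:61927837-61928136, plus strand: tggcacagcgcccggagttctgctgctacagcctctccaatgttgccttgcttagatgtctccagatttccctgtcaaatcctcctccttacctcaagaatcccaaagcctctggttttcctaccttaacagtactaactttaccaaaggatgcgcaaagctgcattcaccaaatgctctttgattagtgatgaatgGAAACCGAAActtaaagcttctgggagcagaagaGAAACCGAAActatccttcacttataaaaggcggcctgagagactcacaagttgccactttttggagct
Gbp3, chr3:142559794-142560093, plus strand: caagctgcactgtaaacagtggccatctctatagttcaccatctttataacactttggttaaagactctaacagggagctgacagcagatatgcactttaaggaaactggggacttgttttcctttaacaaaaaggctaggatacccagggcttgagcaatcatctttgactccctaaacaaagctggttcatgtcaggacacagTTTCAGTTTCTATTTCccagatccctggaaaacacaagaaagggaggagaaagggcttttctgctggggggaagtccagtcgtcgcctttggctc
The Isg15 window holds 3 overlapping matches, the Ddx60 window 2 separate ones, the Gbp3 window 2 overlapping ones in the other orientation and the Oas3 window 1. The letters occur in 3.44% of all promoter windows and in 3.87% of the tested genes with a window. They occur in 16 of 35 interferon targets with a window (45.7%) and in 9 of 10 guanylate binding and immunity-related GTPases (90.0%). Of the 15 leading higher genes outside the interferon-linked lists, 7 had a window and 4 of these held the letters. Among the 15 leading lower genes, 0 of 7 with a window did. A set of 7 is too small to show fewer matches than the 3.87% of tested genes. A match is a description of the sequence and does not show binding.

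The cytosolic RNA sensors were higher in all 3 tumors, while the adaptors below them were near their untreated level. Of 20 sensors and adaptors, 11 were higher at an unadjusted p under 0.05 (2.18% of all genes were) and 12 were separated upward (5.76%). Of the 20, 9 were also on the interferon target list. Ifih1 was at 52.9, 64.1 and 57.7 CPM on day 0 and at 93.9, 79.5 and 154 CPM on day 1, a log2 fold change of 0.90 ± 0.21 (SE, edgeR adjusted p = 0.641). Ddx58 (RIG-I) was at 108, 113 and 112 CPM and then at 178, 149 and 256 CPM, a difference of 0.81 ± 0.17. Tlr3 was at 17.6, 21.1 and 20.8 CPM and then at 29.6, 22.9 and 47.7 CPM, so that replicate 2 only just exceeded the highest untreated tumor. In contrast, Mavs differed by 0.07, Ticam1 by 0.15, Irf3 by -0.04 and Traf3 by -0.10 on the log2 scale, and none of these was separated.

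Irf7, the transcription factor that amplifies interferon production, had the largest fold change among the targets. It was at 60.4, 97.1 and 85.2 CPM in untreated tumors and at 221, 173 and 815 CPM in day 1 replicates 1, 2 and 3. The log2 fold change was 2.32 ± 0.51 (SE, edgeR adjusted p = 0.641, DESeq2 adjusted p = 0.00397), and 1.29 without replicate 3. The smallest p of any interferon target was that of Oas2 (chr5:120730333-120749853, minus strand, GENCODE annotation of GRCm38), an enzyme activated by double-stranded RNA. Oas2 was at 65.1, 76.5 and 67.6 CPM on day 0 and at 166, 122 and 312 CPM on day 1, a log2 fold change of 1.52 ± 0.28 (SE, edgeR adjusted p = 0.641, DESeq2 adjusted p = 0.0011). Even the lowest day 1 tumor was therefore well above the highest untreated tumor. Oas3, whose promoter is printed above, was at 26.8, 38.8 and 37.5 CPM and then at 92.1, 80.1 and 226 CPM (log2 fold change 1.95 ± 0.39). Isg15, a ubiquitin-like modifier, was at 35.1, 43.1 and 37.2 CPM and then at 98.2, 74.9 and 269 CPM (1.94 ± 0.45). The smallest fold change on the list was that of Eif2ak2, the kinase PKR, at 0.51 ± 0.15, with 94.8, 101 and 93.7 CPM followed by 140, 114 and 159 CPM.

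Transcripts of the interferons themselves were close to the limit of detection. Of 21 interferon genes, 19 never had more than 3 counts in any of the 6 tumors and 16 were at 0 in all of them. Ifnb1 had 3, 1 and 1 counts in the untreated tumors, 1 count each in day 1 replicates 1 and 2, and 21 counts in day 1 replicate 3. No Ifna gene had more than 1 count. At this depth, type I interferon transcripts were thus not detectable above the untreated level in 2 of the 3 day 1 tumors, in each of which 45 of 46 targets were nevertheless above every untreated tumor. Ifng had 49, 55 and 68 counts on day 0 and 36, 67 and 191 counts on day 1, so that only replicate 3 exceeded the untreated range.

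The receptor and signalling genes showed no such separation upward. Of 17 interferon receptors, kinases and feedback genes, 0 were at an unadjusted p under 0.05 in edgeR, with 0 called by DESeq2, and the median log2 fold change was 0.13. Ifnar1 differed by 0.04 and Ifnar2 by 0.31. The feedback inhibitor Socs1 was at 17.5, 17.6 and 18.8 CPM on day 0 and at 16.3, 21.7 and 44.8 CPM on day 1. Jak2 was lower in all 3 day 1 tumors, at 103 CPM in each, against 126, 119 and 124 CPM.

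The guanylate binding proteins (GBP) and immunity-related GTPases (IRG), which attack vacuoles of intracellular microbes, divided the day 1 tumors differently from the interferon targets. All 16 were above every untreated tumor in replicate 2 (26.2% of all genes were) and in replicate 3 (36.5%). In replicate 1, 3 of 16 were above (22.3% of all genes) and 6 of 16 below every untreated tumor (26.4%), shares not far from those of all genes. Their median relative to the untreated mean was -0.19 in replicate 1, 0.80 in replicate 2 and 1.08 in replicate 3 on the log2 scale. Gbp10 shows the pattern, with 25.2, 50.9 and 39.6 CPM on day 0 and 30.3, 120 and 136 CPM on day 1. Igtp was at 247, 308 and 281 CPM and then at 273, 620 and 753 CPM. Gbp3 was 1 of the 3 members separated in all tumors, together with Irgm1 and Irgm2, with 130, 181 and 159 CPM followed by 189, 309 and 430 CPM (log2 fold change 0.98 ± 0.31, edgeR adjusted p = 1.00). At an unadjusted p under 0.05, 7 of 16 were higher (2.18% of all genes were), with a list median of 0.67.

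The same tumors stood apart for antigen presentation by MHC class I. All 20 genes tested were above every untreated tumor in replicate 2 (26.2% of all genes were) and in replicate 3 (36.5%). In replicate 1, 2 of 20 were above (22.3% of all genes), and the median was 0.02 from the untreated mean. Tap1, which pumps peptides into the endoplasmic reticulum, was at 262, 338 and 314 CPM on day 0 and at 331, 496 and 574 CPM on day 1. H2-T22 and Tapbp, the peptide-loading chaperone tapasin, were the 2 members separated in all 3 tumors (5.76% of all genes were). Tapbp was at 494, 490 and 495 CPM and then at 573, 735 and 1130 CPM, a log2 fold change of 0.72 ± 0.28. B2m, the shared light chain, differed by 0.27 ± 0.18. The list median was 0.40, with 6 of 20 higher at an unadjusted p under 0.05 (2.18% of all genes were). For MHC class II, 5 of 10 genes were higher and 5 lower. In replicate 1, 9 of 10 were below every untreated tumor (26.4% of all genes were). H2-Ab1 was at 138, 284 and 238 CPM on day 0 and at 79.9, 221 and 349 CPM on day 1. The mean log2 CPM of the class II list was 5.53 to 6.44 in untreated tumors and 5.19 to 6.68 in day 1 tumors, so the groups overlapped.

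**Figure D3:**
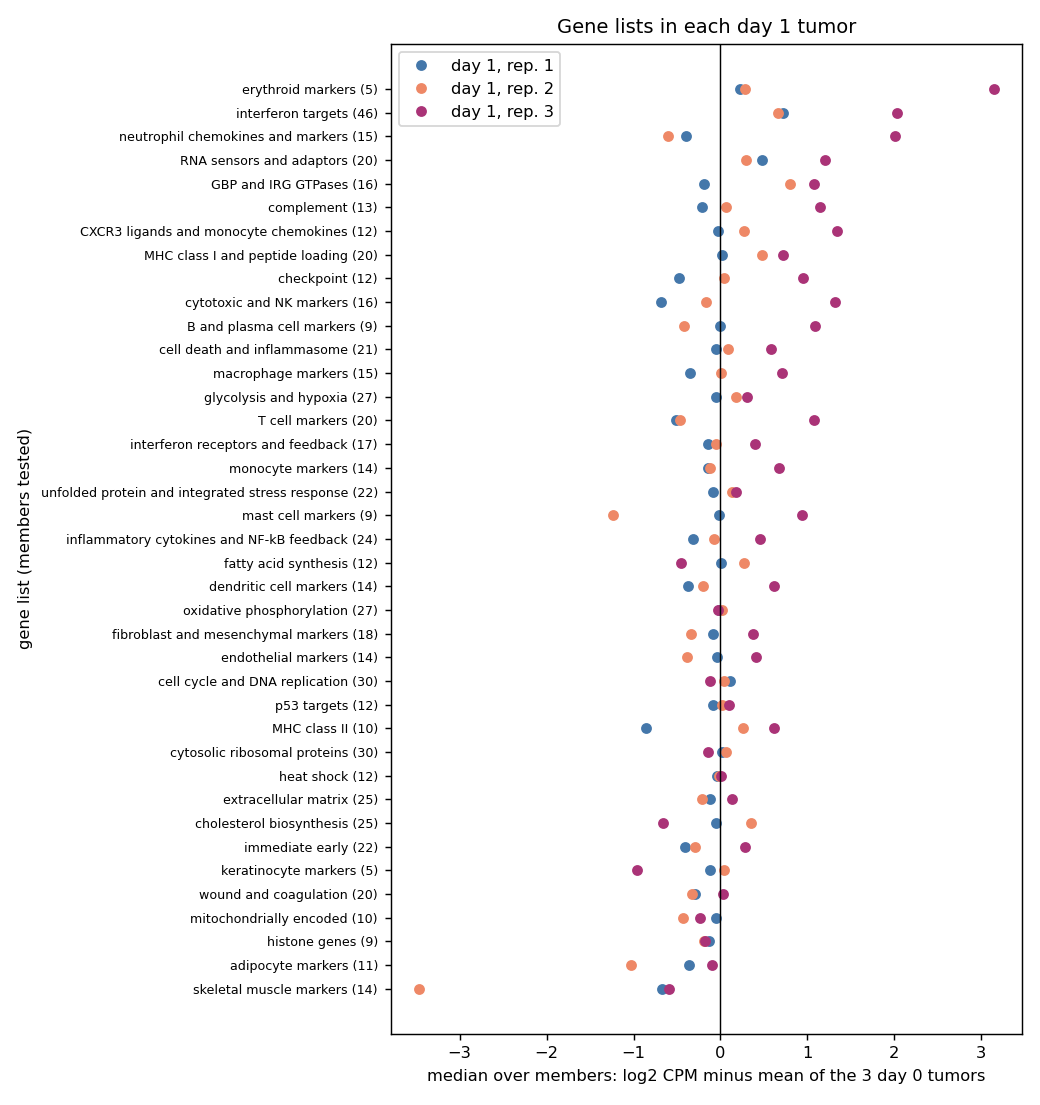
Median of each gene list in each day 1 tumor, as log2 CPM minus the mean of the 3 day 0 tumors, for lists with at least 5 genes tested, ordered by their median log2 fold change. Interferon targets are at 0.72, 0.67 and 2.04 in replicates 1, 2 and 3, and most immune cell lists are above 0 in replicate 3 alone.

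Among chemokines that attract T cells and monocytes, all 12 had a positive fold change, with a median of 0.50. Of the 12, 4 were separated upward (5.76% of all genes were). Cxcl11, a Cxcr3 ligand, was at 34.8, 39.3 and 37.3 CPM on day 0 and at 62.7, 69.8 and 204 CPM on day 1, a log2 fold change of 1.59 ± 0.48 (SE, edgeR adjusted p = 1.00). Cxcl10 was at 116, 142 and 145 CPM and then at 171, 198 and 475 CPM. Ccl5 was at 21.5, 25.8 and 20.5 CPM and then at 40.3, 31.6 and 148 CPM. These 3 exceeded the untreated range in every day 1 tumor. Cxcl9, the Cxcr3 ligand most tied to interferon gamma, was instead at 147, 262 and 251 CPM and then at 131, 260 and 370 CPM, so that only replicate 3 exceeded the untreated tumors. Without day 1 replicate 3 the list median was 0.05. The inflammatory cytokines and the feedback genes of NF-kB had a median of 0.06 over 24 genes, with Nos2 and Vcam1 the 2 at an unadjusted p under 0.05. Nos2 was at 24.3, 35.7 and 28.1 CPM and then at 17.3, 61.7 and 207 CPM.

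Markers of immune cells were higher in day 1 replicate 3 and mostly not in the other 2 tumors. For neutrophil chemokines and markers, the median was -0.40 in replicate 1, -0.60 in replicate 2 and 2.01 in replicate 3. S100a9, an abundant neutrophil protein, was at 1.42, 4.73 and 3.32 CPM on day 0 and at 2.84, 1.28 and 16.7 CPM on day 1. The overall median of 0.79 for this list became -0.50 without replicate 3. The neutrophil chemoattractants Cxcl2 and Cxcl3 were the exceptions that were above the untreated range in all 3 tumors, with Cxcl2 at 1.35, 2.01 and 2.24 CPM and then at 4.28, 2.31 and 14.4 CPM. For T cell markers the medians were -0.51, -0.46 and 1.08 in replicates 1, 2 and 3, and for cytotoxic and NK cell markers they were -0.68, -0.16 and 1.32. Gzmb, a granule protease of killer cells, was at 33.8, 28.9 and 40.4 CPM and then at 27.9, 41.6 and 105 CPM. Of the 20 T cell markers, 0 were above every untreated tumor in replicates 1 and 2 (22.3% and 26.2% of all genes were). In replicate 3, 17 were above (36.5% of all genes). Over the 3 tumors together, 0 of 20 T cell markers and 0 of 16 cytotoxic markers were at an unadjusted p under 0.05 in edgeR, and DESeq2 called 0.

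Genes of inflammatory monocytes were separated upward in part. Ly6c2, a surface marker of these cells, was at 11.4, 19.0 and 15.1 CPM on day 0 and at 22.4, 32.1 and 123 CPM on day 1, a log2 fold change of 1.97 ± 0.62 (SE, edgeR adjusted p = 1.00). Chil3, Plac8 and Ms4a4c were also above every untreated tumor in all 3. With Ly6c2, 4 of the 14 monocyte genes were separated upward (5.76% of all genes were), and 1 was separated downward (6.61%). Ms4a4c was at 15.9, 34.2 and 25.8 CPM and then at 40.2, 37.8 and 173 CPM. The monocyte list as a whole did not move together, with 9 of 14 genes higher and a median of 0.12. At an unadjusted p under 0.05 in edgeR, 5 were higher (2.18% of all genes were) and 1 was lower (0.981%). Ccr2, the receptor by which these cells are recruited, differed by 0.16, and Ly6c2, Plac8 and Ms4a4c are also inducible by interferon.

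A pair of markers of tissue-resident macrophages went the other way. Mrc1, the mannose receptor, was at 459, 198 and 245 CPM in untreated tumors and at 166, 186 and 126 CPM on day 1, a log2 fold change of -0.92 ± 0.34 (SE, edgeR adjusted p = 1.00). The haemoglobin scavenger receptor Cd163 was at 33.3, 18.4 and 20.8 CPM and then at 8.42, 4.63 and 15 CPM. Both were below every untreated tumor in all 3 day 1 tumors (6.61% of all genes were). For Mrc1 the gap was narrow in day 1 replicate 2, at 186 CPM against 198 CPM in the lowest untreated tumor. In replicate 3, 13 of the 15 macrophage markers were instead above every untreated tumor (36.5% of all genes). Over the macrophage list the median relative to the untreated mean was -0.35 in replicate 1, 0.00 in replicate 2 and 0.71 in replicate 3. In replicate 1, 12 of 15 were below every untreated tumor (26.4% of all genes were). Csf1r, the receptor of a macrophage growth factor, was at 185, 216 and 220 CPM and then at 159, 206 and 258 CPM. Fn1, fibronectin, made by macrophages and by mesenchymal cells, was at 1900, 1371 and 1439 CPM and then at 992, 1285 and 901 CPM. For Mrc1, Cd163 and Fn1 alike, day 0 replicate 1 was the highest tumor, which enlarges the differences from day 0.

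**Figure D4:**
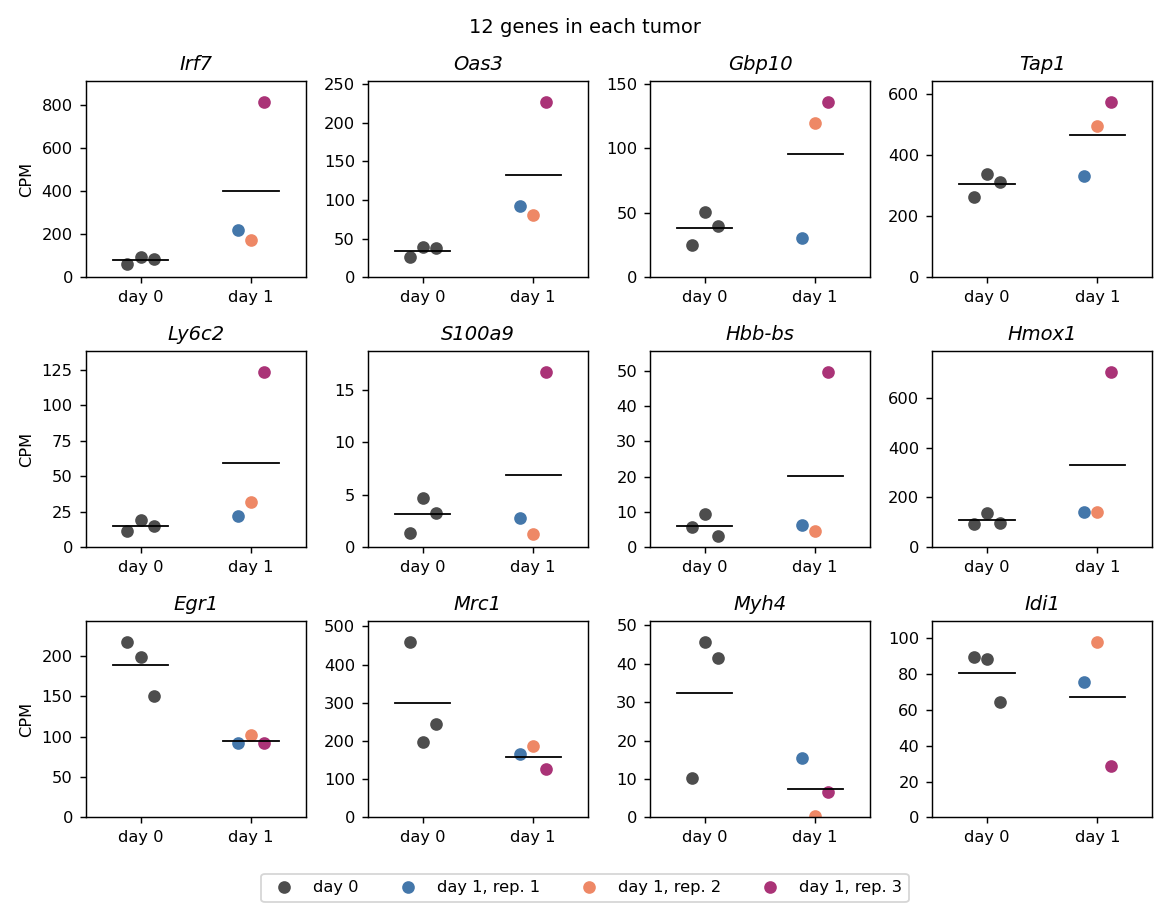
CPM (axes starting at 0) of 12 genes in each tumor, with a bar at the mean of each day. Irf7 and Oas3 are above the untreated tumors in every day 1 tumor, Gbp10 and Tap1 in replicates 2 and 3, S100a9, Hbb-bs and Hmox1 mainly in replicate 3, and Egr1 and Mrc1 are below in all 3.

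Outside the interferon-linked lists, the 15 genes with the smallest p among those higher on day 1 included Ddx60, a helicase that assists RIG-I, the oligoadenylate synthetases Oas1b and Oas1c, the poly(ADP-ribose) polymerase Parp12, the ISG15-conjugating enzyme Ube2l6 and Ifit3b. Relatives of several of these are on the interferon target list (Oas1a, Oas1g, Parp9, Parp14 and Ifit3). Absence from the lists therefore does not mark a gene as unrelated to interferon. Ddx60 was at 23.1, 29.4 and 28.2 CPM on day 0 and at 51.7, 43.7 and 98.5 CPM on day 1, a log2 fold change of 1.26 ± 0.26 (SE, edgeR adjusted p = 0.641, DESeq2 adjusted p = 0.00483). Lgals9, a galectin that binds the checkpoint receptor Havcr2, was the only checkpoint gene at an unadjusted p under 0.05 of the 12 tested. It was at 83.0, 100.5 and 94.3 CPM and then at 162, 132 and 293 CPM. Cd274 (PD-L1) was at 65.8, 88.1 and 76.0 CPM and then at 56.2, 130 and 261 CPM, which is the tumor order of the GTPases.

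Misp, a regulator of the mitotic spindle, was higher in every day 1 tumor, at 0.337, 0.372 and 0.4 CPM and then at 1.07, 0.838 and 3.89 CPM, with the low level limiting its precision. Of the remaining leaders, Gm13370 and Gm10240 had identical counts in every tumor and cannot be separated. In all, 259 of the 337 higher genes and 141 of the 152 lower genes were on none of the 40 lists. Whether genes on no list are interferon targets was not tested.

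**Figure D5:**
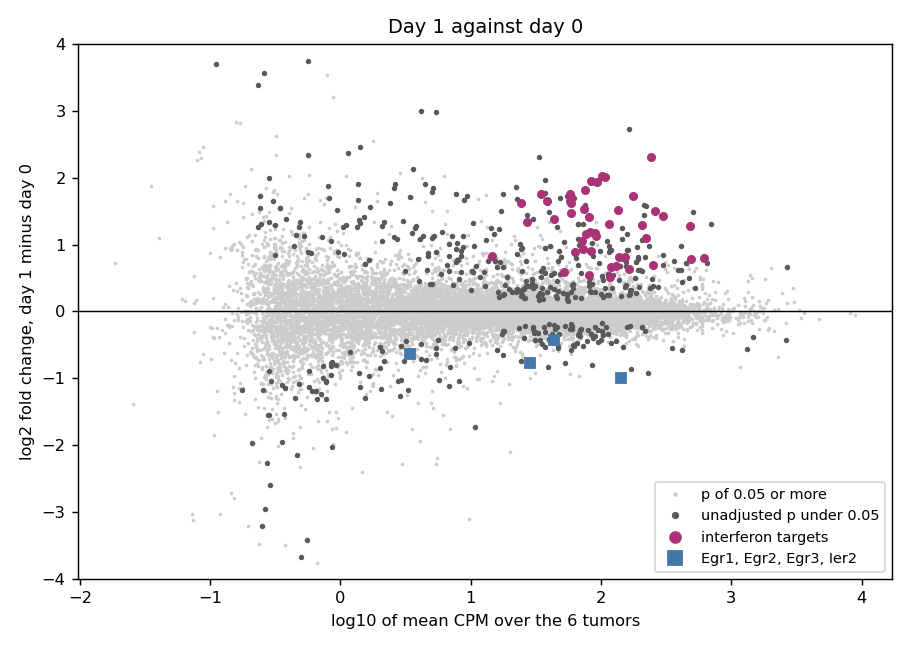
Log2 fold change of day 1 against day 0 by mean CPM (log10 axis) for the genes tested. Dark points mark an unadjusted p under 0.05, and 14 genes beyond ±4 and 2 without a count in the 6 tumors are not drawn. The 46 interferon targets lie at 0.51 or more, and Egr1, Egr2, Egr3 and Ier2 lie below 0.

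Most of the leading lower genes were at similar levels in the 3 day 1 tumors. The 152 lower genes at an unadjusted p under 0.05 were picked by a test on these same tumors. Separation and similar day 1 levels therefore follow in part from that choice. Of the 152, 136 were below every untreated tumor in all 3 day 1 tumors (6.61% of all genes were), and 109 were lowest in replicate 3. Farp2, a guanine nucleotide exchange factor for Rac, had the smallest p among those with a mean CPM of at least 1. It was at 14.9, 8.15 and 9.81 CPM on day 0 and at 5.18, 5.86 and 4.89 CPM on day 1, a log2 fold change of -1.04 ± 0.23 (SE, edgeR adjusted p = 0.641, DESeq2 adjusted p = 0.016). Without day 1 replicate 3 it was -0.99. The 3 day 1 tumors were thus close together, and day 0 replicate 1 was the highest of the 6. Other genes of this kind were Trip11, a Golgi protein, at 53, 52.5 and 52.6 CPM and then at 42.6, 42.5 and 39.8 CPM, and Hipk2, a kinase, at 32.8, 28.4 and 30.2 CPM and then at 19.5, 18.9 and 16.1 CPM. The cell adhesion gene Cdh1 was at 10.7, 7.86 and 8.25 CPM and then at 4.31, 6.46 and 4.31 CPM.

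Immediate early genes, which are transcribed within minutes of growth factor signalling, were lower in part. Egr2 was at 47.1, 29.8 and 30.3 CPM on day 0 and at 20.7, 23.1 and 18.9 CPM on day 1, a log2 fold change of -0.78 ± 0.19 (SE, edgeR adjusted p = 0.641, DESeq2 adjusted p = 0.0467). Egr1 was at 218, 199 and 151 CPM and then at 92.3, 102 and 91.9 CPM (-0.99 ± 0.30), so that all 3 day 1 tumors lay below the lowest untreated tumor. Day 0 replicate 1 was the highest tumor for both Egr2 and Egr1. Egr3 and Ier2 were also at an unadjusted p under 0.05, and Jun and Myc were separated downward without passing it. These are 6 of the 22 immediate early genes. On the list, 6 were separated downward (6.61% of all genes were), and 4 were lower at an unadjusted p under 0.05 (0.981%). The Fos genes did not follow, with Fos at 23.7, 33.6 and 23.5 CPM and then at 15.2, 18.2 and 42.1 CPM, and Atf3 was highest in replicate 3 at 54.5 CPM against 15.1 to 25.9 CPM in untreated tumors. Over the list, 21 of 22 were below every untreated tumor in replicate 1 (26.4% of all genes were), 16 in replicate 2 (29.3%) and 7 in replicate 3 (37.2%).

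Of 20 genes of wounding and coagulation, 7 were higher and 13 lower, with a median log2 fold change of -0.19. At an unadjusted p under 0.05, 2 were higher (2.18% of all genes were) and 1, Areg, was lower (0.981%). In all 3 day 1 tumors, 5 were below every untreated tumor (6.61% of all genes). Areg, Hbegf and Ereg, the 3 ligands of the epidermal growth factor receptor on the list, are described here, Hbegf and Ereg having been chosen after their values were seen. Areg was at 4.18, 3.46 and 4.08 CPM on day 0 and at 1.80, 1.91 and 2.01 CPM on day 1, a log2 fold change of -1.03 ± 0.45 (SE, edgeR adjusted p = 1.00). Hbegf was at 56.3, 58.4 and 55.9 CPM and then at 38.3, 39.5 and 44.8 CPM. Ereg was at 34.1, 29.4 and 31.4 CPM and then at 18.9, 25.1 and 25.7 CPM. All 3 ligands were below every untreated tumor in each day 1 tumor, although Hbegf and Ereg did not pass an unadjusted p under 0.05. The proapoptotic gene Pmaip1 (Noxa) was lower too, at 53.7, 48.6 and 47.9 CPM and then at 37.1, 34.3 and 38.1 CPM. It had the lowest fold change of the 21 cell death and inflammasome genes tested. Of these 21, 18 were higher, with a median log2 fold change of 0.19. In all 3 day 1 tumors, 2 of the 21 were above every untreated tumor (5.76% of all genes) and 1, Pmaip1, was below (6.61%). Among transcripts of the mitochondrial genome, mt-Cytb was at 3018, 2846 and 3197 CPM and then at 2610, 2244 and 1892 CPM, a log2 fold change of -0.43 ± 0.15. Of the 10 on the list, 8 were lower and 2, mt-Co2 and mt-Atp6, were higher, with a median of -0.28. In all 3 day 1 tumors, 3 of the 10 were below every untreated tumor (6.61% of all genes). Nuclear genes of oxidative phosphorylation had a median of 0.01 over 27 genes.

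Some genes were high or low in a single day 1 tumor. In replicate 3, haemoglobin transcripts stood out, with Hbb-bs at 49.6 CPM against 3.20 to 9.35 CPM in untreated tumors and 6.48 and 4.75 CPM in replicates 1 and 2. The haem-degrading enzyme Hmox1 was at 95.7, 136 and 98.9 CPM on day 0 and at 144, 140 and 702 CPM on day 1 (log2 fold change 1.58 ± 0.49, and 0.37 without replicate 3). The acute phase gene Saa3 was at 130 CPM in replicate 3, against 6.20 to 34.9 CPM in untreated tumors and 8.49 and 3.79 CPM in the other day 1 tumors. Serpinb2, the plasminogen activator inhibitor of activated macrophages, was at 33.7 CPM against 2.36 to 4.88 CPM, with 1.00 and 0.519 CPM in replicates 1 and 2. The summed level of the 5 erythroid markers was 124 CPM in replicate 3 and 9.49 to 22 CPM in the other 5 tumors. The part of blood in the differences of replicate 3 was not tested. The complement factors Cfb and C2 were above the untreated range in all 3 tumors, as 2 of 13 complement genes tested (5.76% of all genes were). Cfb was at 76.7, 133 and 112 CPM and then at 162, 152 and 655 CPM (log2 fold change 1.59, and 0.55 without replicate 3). The complement list had medians of -0.22, 0.06 and 1.14 in replicates 1, 2 and 3.

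Sterol synthesis separated replicate 3 from replicate 2. Of 25 cholesterol biosynthesis genes, 22 were below every untreated tumor in replicate 3 (37.2% of all genes were), with a median of -0.66. In replicate 2, 18 of them were instead above every untreated tumor (26.2% of all genes), with a median of 0.35. Idi1 was at 89.6, 88.4 and 64.3 CPM on day 0 and at 75.9, 98.0 and 28.8 CPM on day 1. None of the 25 was at an unadjusted p under 0.05 in edgeR over the 3 tumors, DESeq2 called 0 of them, and the list median was -0.08.

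Replicate 2 was set apart by genes that were low. All 14 skeletal muscle markers were below every untreated tumor there (29.3% of all genes were). Their median was -3.47, against -0.67 in replicate 1 and -0.59 in replicate 3. The muscle markers were also low in the other tumors, to a smaller degree. In replicate 1, 8 of 14 were below every untreated tumor (26.4% of all genes were), and in replicate 3, 8 of 14 (37.2%). In all 3 day 1 tumors together, 3 of 14 were below (6.61%). The myosin gene Myh4 was at 10.2, 45.7 and 41.4 CPM on day 0 and at 15.3, 0.479 and 6.55 CPM on day 1. The summed level of the muscle markers was 120 to 226 CPM in untreated tumors, and 116, 13.1 and 112 CPM on day 1. Mast cell markers were also below every untreated tumor in replicate 2 for 9 of 9 genes, with a median of -1.23. So were 13 of 14 endothelial markers and 13 of 18 fibroblast and mesenchymal markers, against 29.3% of all genes. Muscle is not part of a fibrosarcoma line, and the part of attached tissue in the differences of replicate 2 was not tested.

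The genes of growth and metabolism differed little on day 1. Cell cycle and DNA replication genes had a median of -0.01 over 30 genes, cytosolic ribosomal proteins -0.03 over 30, p53 targets -0.01 over 12, heat shock genes -0.03 over 12 and the unfolded protein and integrated stress responses 0.08 over 22. In edgeR, 0 members of these 5 lists were at an unadjusted p under 0.05, and DESeq2 called 0. Glycolysis and hypoxia genes had a positive fold change in 25 of 27, with a median of 0.15, and none passed that threshold in edgeR or was called by DESeq2. Such medians can hide tumors that differ in opposite directions. Ribosomal protein genes had a median of 0.06 in replicate 2 and -0.14 in replicate 3. Fatty acid synthesis genes, with an overall median of 0.02, were at 0.27 in replicate 2 and -0.46 in replicate 3.

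The day 1 tumors were also compared with the 9 tumors of days 3, 5 and 7 in the same fit, which asks what the first day held that later treated days did not. In edgeR, 0 genes were called (smallest adjusted p = 0.752), and 545 genes were at an unadjusted p under 0.05 (3.52%), 380 of them higher on day 1 (2.45%) and 165 lower (1.06%). DESeq2 was not run on this contrast. The interferon targets were higher on day 1 in 45 of 46 genes, with a median log2 difference of 0.73 and 37 of 46 at an unadjusted p under 0.05. Ddx58 averaged 194 CPM on day 1 (178, 149 and 256 CPM in replicates 1, 2 and 3) and 128 CPM over the later tumors. The later tumors ranged from 108 to 189 CPM, so that only replicate 3 lay above all of them. T cell markers were lower on day 1 than later in 19 of 20 genes, with a median of -0.85, and class II genes in 10 of 10, with a median of -0.68. For those 2 lists, 1 of 20 and 0 of 10 genes were at an unadjusted p under 0.05 in edgeR. The smallest p was that of Sord, sorbitol dehydrogenase, which averaged 36.2 CPM on day 1 and 27.2 CPM later (range 23.5 to 30.2 CPM).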

How the data were processed

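The authors sequenced poly(A) RNA as single-end reads, estimated transcript abundance with kallisto and summed it to genes, and deposited the estimated counts as whole numbers per gene, with 1 column per tumor (GRCm38, per the labels). Reads shared by near-identical copies were divided among them, and 37 tested genes matched another gene's counts in every tumor. Whether counting used strand is not given in the sources used here. Of 32544 entries, 9156 had no count in any tumor, and 1 entry with a date for a name was left out (at most 0.0268% of a tumor's counts).

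The genes tested passed the study's own filter, more than 0.366 CPM in 3 or more of the 15 tumors. They were tested with edgeR 4.0.16 (R 4.3.3): TMM factors, a quasi-likelihood F test, two-sided, day as the only term, all 15 tumors, and Benjamini-Hochberg adjustment over the 15494 genes. The study's methods state no test for the time course. DESeq2 1.42.0 was the alternative. Per-tumor deviations are log2 CPM (prior count 2) minus the mean of the 3 day 0 tumors. An exact permutation test of 3 against 3 tumors cannot go below 0.1, so none was run. The model was tested on simulated data. No 2 tumors agreed within sampling noise. The tumors, the 40 gene lists and the tests were chosen with earlier results of these data known. Genes were named by their p among all genes with a mean CPM of at least 1, with and without the interferon-linked lists (15 in each direction), as the extremes or smallest p of each list, as the 5 highest and 5 lowest of each day 1 tumor by their gap to the other tumors, or as common readouts of poly(I:C). Other genes named were chosen after their values were seen. A few members of the lists are counted but not reported here by name.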

Additional observations from a re-analysis of the deposited data

How the results depend on the processing

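The 0 calls of edgeR for day 1 against day 0 were unchanged under every edgeR alternative tried, but not under DESeq2, which called 40 genes. In analyses added after seeing the data, DESeq2 called 54 on the 6 tumors alone, 71 without day 3 replicate 1, a tumor that stands apart in the series, and 5 without day 1 replicate 3. The number at an unadjusted p under 0.05, 489, ranged from 192 to 840 as tumors were left out. The lowest value came without day 1 replicate 3 and the highest without day 3 replicate 1. Leaving out day 0 replicate 1 gave 256, and leaving out day 1 replicate 1 gave 823. The interferon targets kept a positive median under all alternatives, from 0.71 to 1.55. With 1 tumor left out, the neutrophil median of 0.79 ranged from -0.50 to 1.20, the erythroid median of 1.74 from 0.28 to 2.21, the histone median of -0.32 from -0.33 to -0.074 and the heat shock median of -0.03 from -0.064 to 0.13. The oxidative phosphorylation median of 0.013 ranged from -0.015 to 0.023, and was 0.000317 with library totals only. Against the later days, the count of 545 ranged from 321 without day 1 replicate 2 to 1083 without day 1 replicate 3. Without day 1 replicate 3, 19 of 163 named genes changed sign, and at most 9 did without any other tumor. The cause of these shifts was not tested.

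The replicate numbers of the labels were not used to pair the tumors in the main fit. Same-numbered tumors of days 0 and 1 correlated at 0.21, -0.18 and 0.15 in their deviations from the day means. Not every tumor correlated best with its own number. The deviations of the 3 tumors of a day sum to 0, so these correlations cannot exclude a pairing by number. With the replicate block, 0 genes were called by edgeR and 412 had an unadjusted p under 0.05. With 3 tumors a day, a difference carried by 1 tumor gives a wide spread. Genes under about 0.1 CPM were at the limit that a count of 0 allows.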

Other observations

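Several other genes were far from the other tumors in a single day 1 tumor. In day 1 replicate 3, the predicted gene Gm15056 was at 26.0 CPM against 1.60 to 2.90 CPM in the other 5 tumors, Prg4, the lubricin of joint and mesothelial surfaces, at 18.2 CPM against 0.638 to 2.46 CPM, and Chga, a granule protein of neuroendocrine cells, at 13 CPM against 0.303 to 1.82 CPM. In day 1 replicate 2, Pdlim3, a protein of the muscle Z disc, was at 0.0399 CPM against 2.21 to 3.00 CPM in the other 5 tumors. In day 1 replicate 1, Lyz1, a lysozyme, was at 0.635 CPM against 1.58 to 7.55 CPM.

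Transcript length moved slightly with replicate 3. The median deviation from the untreated mean was 0.03 in the shortest 20% of genes and -0.09 in the longest 20%, against -0.0036 and -0.01 in replicate 1. Its part in the differences of replicate 3 was not tested.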
